A study of Arabidopsis thaliana with 36 samples.

Results

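The genes of the CBF/DREB1 cold regulon were followed through all 36 libraries of an RNA sequencing experiment on light responses in seedlings of *Arabidopsis thaliana*. The set was listed by gene identifier, with earlier results of these data known. It holds 10 of the 33602 genes counted: the transcription factor genes *DREB1B* (also called *CBF1*, AT4G25490), *DREB1C* (*CBF2*, AT4G25470) and *DREB1A* (*CBF3*, AT4G25480), and 7 of their cold-regulated (COR) target genes, *COR15A* (AT2G42540), *COR15B* (AT2G42530), *COR47* (AT1G20440), *ERD10* (AT1G20450), *RD29A* (*COR78*, AT5G52310), *KIN1* (AT5G15960) and *KIN2* (AT5G15970). All 10 were among the 20926 genes kept for testing. Seedlings of *uvr8-6*, *hfr1-101* and wild type, all in the Col-0 background, were grown at 22 °C in constant white light and used at 7 days of age. They were exposed for 3 h to white light with far-red and narrowband UV-B (+FR+UVB), with UV-B alone (+UVB) or with far-red alone (+FR), or remained in white light (WL). Each of the 12 combinations had 3 libraries, each made from 30 whole seedlings. None of the groups was chilled. White light had a red to far-red ratio of 4.7. For +FR, the labels give 0.05 in one protocol and 0.08 in another. The mutants *uvr8* and *hfr1* lack the function of the UV-B photoreceptor UVR8 and of the bHLH protein HFR1, which holds back shade responses, and each was represented by 1 allele. The labels describe WL plates as remaining in place and the other plates as being transferred, so the effect of the transfer and that of the added light cannot be told apart in comparisons with WL.

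The DREB1 proteins are AP2/ERF transcription factors that are encoded side by side on chromosome 4 and are known for their rapid induction when plants are chilled. They bind the C-repeat/dehydration-responsive element (CRT/DRE), whose core is CCGAC, in the promoters of COR genes. The COR proteins are mostly small, hydrophilic proteins that protect membranes and other proteins during freezing and drought. In warm conditions the DREB1 genes are kept low, and the circadian clock, phytochrome B and the PIF proteins, which bind the G-box CACGTG, are known to take part in this control. Light with a low ratio of red to far-red is known to raise DREB1 and COR transcripts at moderate temperatures. *RD29A*, *KIN1*, *KIN2*, *COR47* and *ERD10* also respond to abscisic acid (ABA).

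CRT/DRE cores and G-boxes were looked for on both strands in the 1000 bases before the most upstream annotated start codon of each gene (RefSeq sequence and annotation of TAIR10.1). The core CCGAC was present before all 7 COR members and before none of the 3 DREB1 members. Of all 27443 protein-coding genes with a full window, 39.4% held it at least once and 3.18% at least 3 times. *RD29A* had 4 cores, *COR15A* and *ERD10* had 3, *COR15B* and *KIN1* had 2, and *COR47* and *KIN2* had 1. The 3 cores of *ERD10* overlap in a tandem repeat. The following windows show the core nearest to the start codon of each COR member in capitals, with 10 bases on either side, and for *RD29A* also the next one upstream, since these are the letters a DREB1 protein is known to bind.
*COR15A*, chr2:17712218-17712242, minus strand: aatttcatggCCGACctgctttttt
*COR15B*, chr2:17710124-17710148, minus strand: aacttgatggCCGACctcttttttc
*COR47*, chr1:7085918-7085942, minus strand: tattcatctaCCGACttcaagaaat
*ERD10*, chr1:7089363-7089387, minus strand: caccgaccgaCCGACgtaaaagaaa
*RD29A*, chr5:21240711-21240735, plus strand: aaagatcaagCCGACacagacacgc
*RD29A*, chr5:21240674-21240698, plus strand: agatatactaCCGACatgagttcca
*KIN1*, chr5:5209804-5209828, plus strand: taaatagctaCCGACataaggcaaa
*KIN2*, chr5:5211771-5211795, plus strand: taaaaagctaCCGACataaggcaaa
The second window of *RD29A* lies upstream of the annotated gene. In the other windows the core falls in an exon of the 5′ UTR of at least 1 annotated transcript.

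The G-box CACGTG was present before 7 of the 10 members and before 15.1% of all genes. *KIN2* had 3, *KIN1*, *COR15A* and *ERD10* had 2, and *DREB1B*, *DREB1C* and *COR15B* had 1. *DREB1A*, *COR47* and *RD29A* had no match in the window. The windows of *DREB1B* and *DREB1C*, the regulators with a match, and of *KIN1* and *KIN2*, whose response to UV-B differed between *uvr8* and wild type, are shown with the G-box nearest to the start codon in capitals, and for *KIN2* also the next one upstream.
*DREB1B*, chr4:13022822-13022847, minus strand: atgtactataCACGTGtcattcacag
*DREB1C*, chr4:13016322-13016347, minus strand: gtttcttatcCACGTGgcattcacag
*KIN1*, chr5:5209844-5209869, plus strand: aaatgtaatcCACGTGgttttagatt
*KIN2*, chr5:5211828-5211853, plus strand: tttcagattaCACGTGgcaccacaca
*KIN2*, chr5:5211811-5211836, plus strand: aaacgtaatcCACGTGgtttcagatt
The *DREB1C* site lies upstream of the annotated gene and the other 4 lie in a 5′ UTR exon. These matches describe the sequence, and binding was not measured.

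Libraries held 9749710 to 21175260 counts, with a median of 18488977, so a level is given below in CPM (counts scaled to a common library size with edgeR's TMM factors), and 3 counts, taken as the floor, were worth between 0.128 and 0.317 CPM. *UVR8* itself, read as a check on the labels, had 12.2 to 17.0 CPM in *uvr8* libraries, against 65.6 to 109.5 CPM in all others, while the *HFR1* transcript gives no check on the *hfr1* label, with 4.00 ± 1.16 CPM under WL in *hfr1*, against 4.03 ± 1.41 in wild type, and 109 ± 10.9 CPM under +FR in *hfr1*, against 82.0 ± 5.72 in wild type (SD, n = 3). Shoot markers (*RBCS1A*, *LHCB1.3*, *LHCA1*) summed to 22388 to 44059 CPM and root markers to 61.0 to 262.5 CPM, and left-over seed transcripts stood out in 1 *uvr8* WL library (89.6 CPM) and 1 *uvr8* +UVB library (15.8 CPM). In 3 libraries all 10 members were above their group's mean, several by a wide margin: *hfr1* +FR library 2, *uvr8* +FR+UVB library 3 and wild-type WL library 3. All 13 genes of an ABA and drought list (*RD29B*, *RAB18*, *RD20*, *NCED3* and others) were above their group's mean in these 3 libraries. Their summed level was 2059 CPM in *hfr1* +FR library 2, against 816 and 1259 in the other libraries of the group, 1449 CPM in *uvr8* +FR+UVB library 3, against 817 and 943, and 1908 CPM in wild-type WL library 3, against 1067 and 1161. The 10 members were also above the mean, by less on average, in *uvr8* WL library 3 and *hfr1* +FR+UVB library 2. What sets the first 3 libraries apart was not tested. Leaving out these 3 was a choice made after seeing the members' values in them. Adjusted p-values from such fits are therefore no independent test of the members. Where leaving them out changes a call or moves a member's value by over 1.5 times, the text gives the value without them for the results it describes.

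Per kilobase of annotated exon, the members spanned a wide range of levels in every group. Under WL in wild type, the highest levels were those of *KIN2*, at 129 ± 59.6 CPM per kb, and *COR47*, at 124 ± 15.0 (SD, n = 3), followed by *ERD10* at 62.8 ± 11.5 and *RD29A* at 38.9 ± 26.5. *COR15A* lay at 11.1 ± 15.0, *COR15B* at 9.93 ± 9.26 and *KIN1* at 8.03 ± 3.75 CPM per kb. Their order rests on WL library 3, without which *COR15A* lay at 2.38, *COR15B* at 4.61, *KIN1* at 5.87 and *RD29A* at 23.7 CPM per kb. The order of *KIN2* and *COR47* also turned without this library, at 94.9 CPM per kb for *KIN2* and 115 for *COR47*. The DREB1 genes were near the floor, at 1.08 for *DREB1C*, 0.553 for *DREB1A* and 0.207 CPM per kb for *DREB1B*. *DREB1B* never exceeded 49 counts in a library, and its values carry the largest counting error of the set. Across the 12 groups, *uvr8* +UVB had the lowest mean of all members except *DREB1B*. The highest mean fell to *uvr8* +FR for 7 members, to *hfr1* +FR for *DREB1C*, and to wild type under +FR+UVB for *KIN1* and *KIN2*. Most neighbours in these orders had overlapping libraries: of the 11 neighbouring pairs, between 9 and 11 overlapped for each member.

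**Figure D1:**
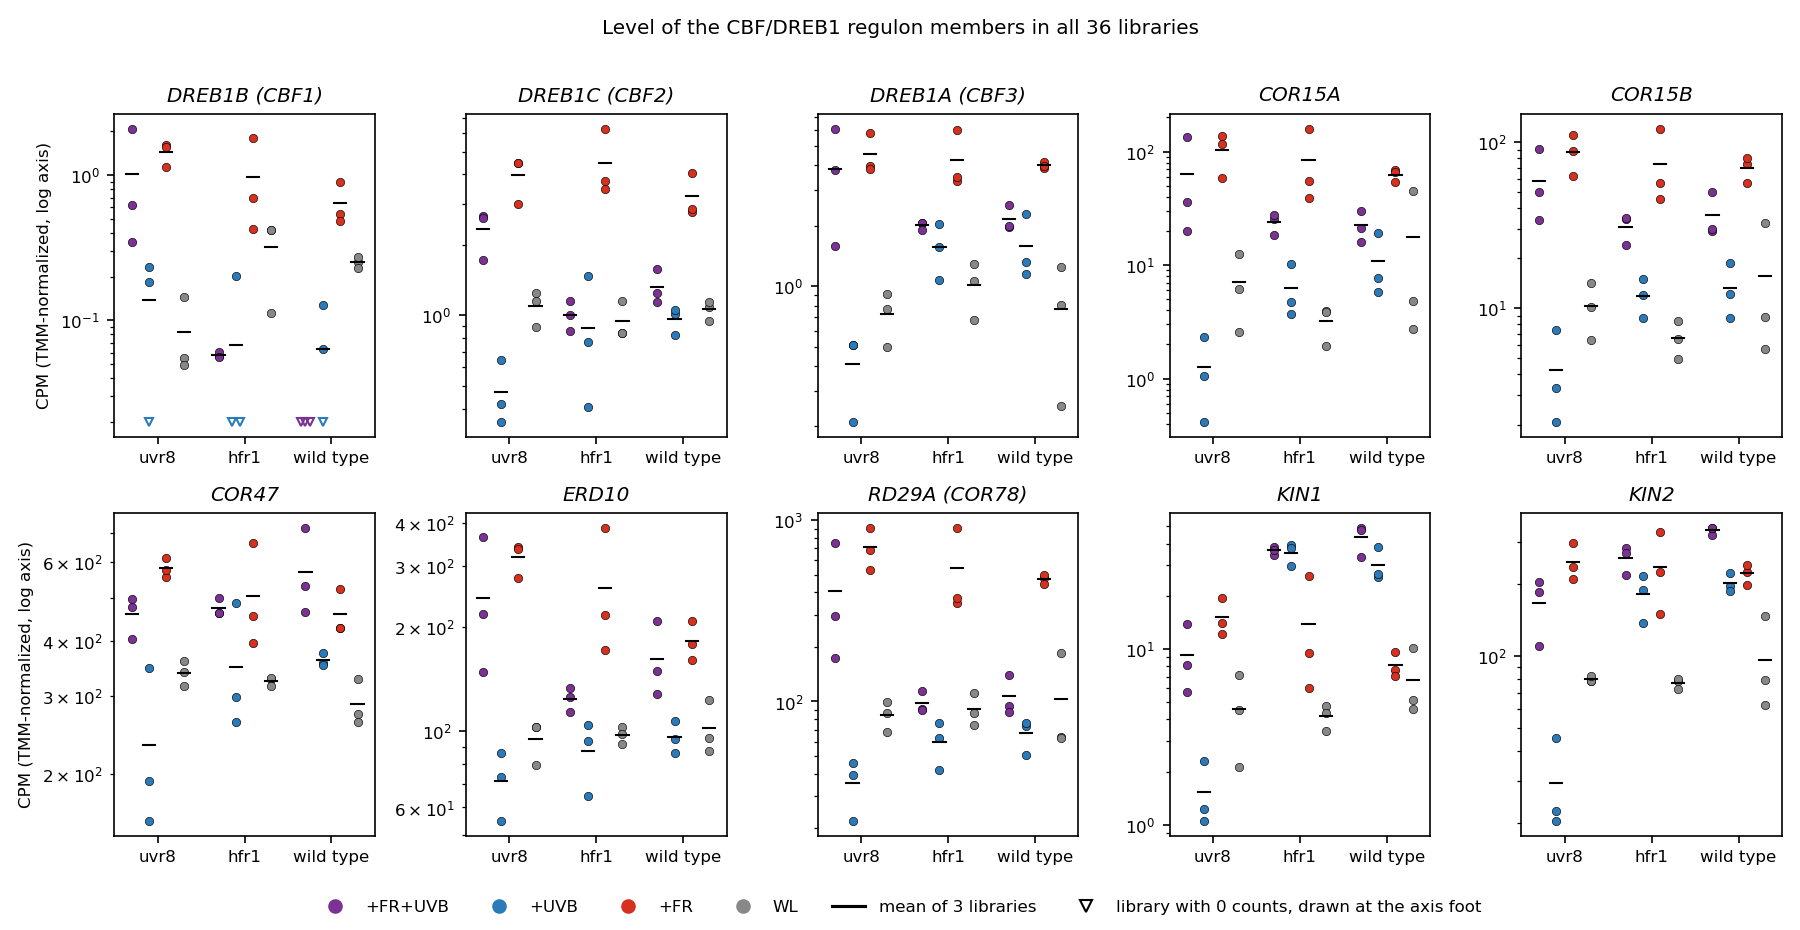
Level of each of the 10 members in all 36 libraries, in TMM-normalized CPM on a log axis, by genotype and light condition, with points for libraries, a bar for the mean of 3 and triangles for libraries with 0 counts. +FR libraries sit at or near the top for the DREB1 genes, COR15A, COR15B, ERD10 and RD29A, whereas KIN1 in hfr1 and wild type is highest in the libraries that received UV-B (25.8 to 49.1 CPM in wild type).

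The first comparison asked how far a lowered red to far-red ratio alone changed the regulon. Under +FR all 10 members were higher on average than under WL in each genotype, and *DREB1C*, *DREB1A*, *COR15B*, *RD29A* and *KIN2* passed the test in all 3. A member was taken as changed when the fold change was over 2 and the adjusted p under 0.05 (edgeR quasi-likelihood test, Benjamini-Hochberg over all 20926 genes). By this rule 9 members rose in *uvr8*, where 1.49% of all genes did, 8 rose in *hfr1*, against 1.66% of all genes, and 5 rose in wild type, against 1.43%. No member fell in any genotype, where 0.554% of all genes fell in *uvr8*, 1.14% in *hfr1* and 0.516% in wild type. Over the 10 members the median log2 fold change was 2.25 in *uvr8*, 1.92 in *hfr1* and 1.46 in wild type, where that of all genes lay between -0.00375 and 0.00797. Without the 3 libraries that stand apart, 6 members rose in *hfr1* and 6 in wild type, and the order of their medians turned, at 1.51 in *hfr1* and 1.63 in wild type. In whole seedlings, more RNA per cell and more cells with the transcript cannot be told apart.

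Of the regulators, *DREB1A* had 3.98, 3.85 and 5.80 CPM under +FR in *uvr8*, against 0.767, 0.496 and 0.911 CPM under WL (log2 fold change 2.64 ± 0.42, adjusted p = 7.2e-05). It had 3.33, 5.97 and 3.50 CPM under +FR in *hfr1*, against 1.06, 0.679 and 1.29 under WL (log2 fold change 2.08 ± 0.42, adjusted p = 0.000947), and 3.86, 4.17 and 3.97 CPM under +FR in wild type, against 0.254, 0.804 and 1.25 under WL (log2 fold change 2.34 ± 0.42, adjusted p = 0.000316). Every +FR library was above every WL library of its genotype. *DREB1C* also rose, with 3.00, 4.48 and 4.49 CPM under +FR in *uvr8*, against 1.15, 0.893 and 1.25 under WL (1.86 ± 0.30, adjusted p = 7.74e-05). Its log2 fold changes were 2.22 ± 0.31 in *hfr1* (adjusted p = 8.24e-06) and 1.60 ± 0.30 in wild type (adjusted p = 0.000597), again without overlap between +FR and WL libraries. *DREB1B* was counted so rarely that its counts are given: 31, 20 and 30 under +FR in *uvr8*, against 1, 1 and 3 under WL. The ratio of its scaled counts was 17.1 (7.04 to 54.1) in *uvr8*, where it passed (adjusted p = 0.00127), 3.15 (1.73 to 6.10) in *hfr1* (adjusted p = 0.144) and 2.55 (1.32 to 5.24) in wild type (adjusted p = 0.295), with 95% intervals that cover counting error only. Without *hfr1* +FR library 2 the *hfr1* ratio was 1.86 (0.925 to 3.89).

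Among the target genes, *RD29A*, a hydrophilic stress protein whose promoter served to define the DRE, reached 689, 531 and 908 CPM under +FR in *uvr8*, against 86.3, 68.0 and 99.7 CPM under WL (log2 fold change 3.07 ± 0.46, adjusted p = 3.19e-05). In *hfr1* it had 348, 908 and 374 CPM, against 112, 74.3 and 86.1 (log2 fold change 2.58 ± 0.45, adjusted p = 0.000180). In wild type it had 480.2, 499 and 447 CPM under +FR, against 63.3, 62.7 and 185 under WL (log2 fold change 2.20 ± 0.44, adjusted p = 0.00112). The groups did not overlap in any genotype, although wild-type WL library 3, at 185 CPM, lay well above the other WL libraries of wild type. Leaving out the 3 that stand apart, *RD29A* had 1.98 in *hfr1* and 2.90 in wild type and passed in both. *COR15A* and *COR15B* encode chloroplast proteins that stabilize membranes on freezing. *COR15B* rose in all genotypes, by 3.08 ± 0.51 in *uvr8* (adjusted p = 0.000124), 3.48 ± 0.54 in *hfr1* (adjusted p = 3.79e-05) and 2.15 ± 0.49 in wild type (adjusted p = 0.00397) on the log2 scale, and without those libraries by 2.93 in *hfr1* and 3.24 in wild type. *COR15A* had 116, 58.4 and 138 CPM under +FR in *uvr8*, against 2.57, 6.15 and 12.6 under WL (log2 fold change 3.86 ± 0.80, adjusted p = 0.00190), and 38.7, 159 and 54.7 in *hfr1*, against 3.91, 1.93 and 3.88 (log2 fold change 4.74 ± 0.89, adjusted p = 0.000477). In wild type it had 68.2, 53.7 and 65.5 CPM under +FR, against 2.73, 4.82 and 45.0 under WL, and did not pass (log2 fold change 1.82 ± 0.73, adjusted p = 0.122). The 45.0 CPM belong to wild-type WL library 3, and without the 3 libraries that stand apart *COR15A* passed in wild type with a log2 fold change of 4.02 (adjusted p = 9.97e-05) and had 3.88 (adjusted p = 4.11e-05) in *hfr1*.

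The dehydrin genes *COR47* and *ERD10*, which lie next to each other on chromosome 1, differed in how far they moved. *ERD10* rose in *uvr8* (1.75 ± 0.27, adjusted p = 4.68e-05) and *hfr1* (1.41 ± 0.27, adjusted p = 0.000487) and had a log2 fold change of 0.84 ± 0.26 in wild type, under the 2-fold minimum (adjusted p = 0.0384). *COR47* stayed under 2-fold in every genotype, with 0.78 ± 0.22 in *uvr8* (adjusted p = 0.0238), 0.64 ± 0.22 in *hfr1* (adjusted p = 0.0596) and 0.68 ± 0.22 in wild type (adjusted p = 0.0475). *KIN1* and *KIN2* are a tandem pair on chromosome 5 that code for small alanine-rich hydrophilic proteins. *KIN2* rose in *uvr8* (1.63 ± 0.29, adjusted p = 0.000279), *hfr1* (1.61 ± 0.29, adjusted p = 0.000251) and wild type (1.20 ± 0.28, adjusted p = 0.00526), and in wild type the adjusted p was 0.0547 without WL library 1. *KIN1* had 7.67, 9.62 and 7.08 CPM under +FR in wild type, against 5.13, 4.59 and 10.2 under WL, where the libraries overlapped (log2 fold change 0.28 ± 0.42, adjusted p = 0.767). It passed in *uvr8* (1.74 ± 0.42, adjusted p = 0.00728) and *hfr1* (1.75 ± 0.44, adjusted p = 0.00790). Without the 3 libraries that stand apart, *ERD10* and *KIN1* no longer passed in *hfr1*, with 0.99 (adjusted p = 0.00206) for *ERD10* and 0.91 (adjusted p = 0.101) for *KIN1*. The adjusted p of *KIN1* was also 0.0541 in *hfr1* without its WL library 2, and 0.0574 in *uvr8* without its WL library 2.

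The next comparison asked what UV-B did in white light. *KIN1* and *KIN2* rose in *hfr1* and in wild type, *KIN2* fell in *uvr8*, and no other member passed with edgeR. DESeq2 also called *DREB1A* higher in wild type (1.04, adjusted p = 0.0466) and *KIN1* lower in *uvr8* (-1.55, adjusted p = 0.0273). The 2 members that rose compare with 7.96% of all genes higher in *hfr1* and 6.68% higher in wild type, and the 1 member that fell with 0.306% of all genes lower in *uvr8*. In the other genotypes no member fell, where 6.83% of all genes fell in *hfr1* and 6.79% in wild type. *KIN1* had 29.7, 39.3 and 37.5 CPM under +UVB in *hfr1*, against 4.75, 3.45 and 4.33 CPM under WL (log2 fold change 3.11 ± 0.44, adjusted p = 1.16e-06), and 25.8, 38.4 and 26.7 CPM under +UVB in wild type, against 5.13, 4.59 and 10.2 under WL (log2 fold change 2.18 ± 0.41, adjusted p = 6.25e-05). In *uvr8* it had 1.05, 2.33 and 1.24 CPM under +UVB, against 4.49, 2.13 and 7.15 under WL (log2 fold change -1.54 ± 0.51, adjusted p = 0.104). The +UVB libraries thus lay above all WL libraries in *hfr1* and wild type and overlapped with them at the low end in *uvr8*. *KIN2* had 20.4, 45.4 and 22.4 CPM under +UVB in *uvr8*, against 78.9, 79.0 and 82.4 under WL (log2 fold change -1.44 ± 0.29, adjusted p = 0.00519), so every +UVB library was below every WL library. In wild type it had 197, 222 and 188 CPM under +UVB, against 62.8, 79.6 and 147 under WL (log2 fold change 1.06 ± 0.28, adjusted p = 0.00247), and in *hfr1* its log2 fold change was 1.23 ± 0.28 (adjusted p = 0.000687). The wild-type change of *KIN2* lay close to the 2-fold minimum and fell under it without WL library 1, WL library 2 or +UVB library 2, or without TMM factors (0.89, adjusted p = 0.00889). The fall in *uvr8* had an adjusted p of 0.0580 without +UVB library 1 and of 0.0864 in a fit of the *uvr8* libraries alone. *KIN1* also fell there (-1.87, adjusted p = 0.0442) without WL library 2.

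Among the other members, *DREB1A* came nearest to passing in wild type. It had 1.14, 2.29 and 1.33 CPM under +UVB in wild type, against 0.254, 0.804 and 1.25 under WL (log2 fold change 1.01 ± 0.45, adjusted p = 0.0629). With replicate number as a block it passed in wild type, at 1.06 (adjusted p = 0.0299), as it did in a fit of the wild-type libraries alone (1.04, adjusted p = 0.0494), and the block gave 2.19 for *KIN1* and 1.09 for *KIN2*. Without the 3 libraries that stand apart, 4 members were higher in wild type: *DREB1A* (1.56, adjusted p = 0.00662), *COR15A*, at 1.52 (adjusted p = 0.0474) where it had -0.70 with all libraries, *KIN1* and *KIN2*. In *uvr8*, 9 of the 10 fold changes were negative, with *DREB1B* the exception. The median of the 10 was -1.21, where that of all genes was -0.00768. An unadjusted p under 0.05 was found for 7 members, with no share of all genes to set beside it, and with edgeR only *KIN2* passed. *COR15A* had 1.05, 2.33 and 0.415 CPM under +UVB in *uvr8*, against 2.57, 6.15 and 12.6 under WL (log2 fold change -2.48 ± 1.00, adjusted p = 0.194), and *DREB1C* had 0.351, 0.419 and 0.645 CPM, against 1.15, 0.893 and 1.25 (log2 fold change -1.18 ± 0.35, adjusted p = 0.0680). For both genes the +UVB libraries lay below all WL libraries, and neither passed. *DREB1C* passed without *uvr8* +UVB library 3 (-1.47, adjusted p = 0.0354).

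The third comparison asked whether UV-B lowered the members raised by far-red. In *hfr1* and wild type most of them had negative fold changes, whereas *KIN1* rose. In *uvr8* all 10 fold changes were negative and none passed. In *hfr1* 7 members fell, where 6.66% of all genes did, and *KIN1* rose, against 6.61% of all genes. In wild type 3 fell, against 8.53% of all genes, and *KIN1* rose, against 8.27%. In *uvr8*, where 0.239% of all genes fell and 0.616% rose, 0 members passed with edgeR and 0 with DESeq2, and 2 had an unadjusted p under 0.05. This comparison uses the +FR libraries that also stand in +FR against WL, so a +FR library that lies high raises one and lowers the other.

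*RD29A* had 91.0, 114 and 89.5 CPM under +FR+UVB in *hfr1*, against 348, 908 and 374 under +FR (log2 fold change -2.47 ± 0.45, adjusted p = 3.79e-05), and 93.9, 139.8 and 88.0 CPM under +FR+UVB in wild type, against 480.2, 499 and 447 under +FR (log2 fold change -2.15 ± 0.44, adjusted p = 0.000150). In *hfr1* its +FR+UVB libraries lay within or just beside the range of CPM seen under WL. In wild type they lay above WL libraries 1 and 2 and below WL library 3. The *hfr1* fold change was -1.88 without the 3 libraries that stand apart, and passed. In *uvr8* it had 174, 296 and 746 CPM under +FR+UVB, against 689, 531 and 908 under +FR, with overlap through library 3 (log2 fold change -0.81 ± 0.42, adjusted p = 0.365). *DREB1C* had 0.860, 1.16 and 1.01 CPM under +FR+UVB in *hfr1*, against 3.76, 6.28 and 3.45 under +FR (log2 fold change -2.15 ± 0.30, adjusted p = 9.57e-07), and 1.24, 1.57 and 1.14 in wild type, against 2.77, 4.07 and 2.84 (log2 fold change -1.29 ± 0.30, adjusted p = 0.000533). *DREB1B* had 0 counts in all 3 wild-type +FR+UVB libraries, against 10, 17 and 9 counts under +FR. With 3 counts over the group as the floor, *DREB1B* lay 11.1-fold below its +FR level (adjusted p = 0.000359). The upper end of its ratio, for counting error only, was 0.117. In *hfr1* it had 1, 1 and 1 counts, against 9, 35 and 15 under +FR, a ratio of 0.0610 (0.0122 to 0.187), and in *uvr8* 7, 12 and 49 counts, against 31, 20 and 30, a ratio of 0.750 (0.535 to 1.05). The ratio was 0.334 (0.191 to 0.555) in *uvr8* and 0.103 (0.0199 to 0.340) in *hfr1* without the 3 libraries that stand apart.

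*DREB1A* had fold changes nearer 0 than those of *DREB1B* and *DREB1C*, a difference between genes that was not tested. It had 2.06, 2.07 and 1.90 CPM under +FR+UVB in *hfr1*, against 3.33, 5.97 and 3.50 under +FR (log2 fold change -1.08 ± 0.38, adjusted p = 0.0188), and 1.97, 2.53 and 2.00 CPM in wild type, against 3.86, 4.17 and 3.97, which stayed under 2-fold (log2 fold change -0.88 ± 0.38, adjusted p = 0.0495). In both genotypes the groups did not overlap. *COR15A* fell in *hfr1* (-1.82 ± 0.73, adjusted p = 0.0382), as did *COR15B* (-1.26 ± 0.47, adjusted p = 0.0272) and *ERD10* (-1.06 ± 0.26, adjusted p = 0.00136). In wild type *COR15A* had -1.48 ± 0.72, *COR15B* -0.95 ± 0.47 and *ERD10* -0.17 ± 0.26, and none of the 3 passed. The *hfr1* count rests on +FR library 2: without it, or without the 3 libraries that stand apart, 3 members fell in *hfr1*, and *DREB1A*, *COR15A*, *COR15B* and *ERD10* no longer passed. Without the 3 libraries, *DREB1A* had -0.76 (adjusted p = 0.0757), *COR15A* -0.97 (adjusted p = 0.107), *COR15B* -0.72 (adjusted p = 0.108) and *ERD10* -0.65 (adjusted p = 0.0108) in *hfr1*. Without *hfr1* +FR+UVB library 3, 4 members fell, *COR15A* also failed without +FR+UVB library 1 or 2, and *COR15B* without library 1. In *uvr8*, leaving out the 3 libraries that stand apart gave 3 members that fell, *COR15A* at -1.89 (adjusted p = 0.0351), *RD29A* at -1.60 (adjusted p = 0.00206) and *KIN1* at -1.15 (adjusted p = 0.0350). Without the TMM factors 6 members were lower in wild type, in a fit for which the share of all genes was not computed.

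*KIN1* rose in *hfr1* and wild type, where other members fell. It had 34.4, 38.4 and 36.9 CPM under +FR+UVB in *hfr1*, against 6.00, 26.1 and 9.58 under +FR (log2 fold change 1.40 ± 0.38, adjusted p = 0.00318), and 33.3, 49.1 and 47.6 CPM under +FR+UVB in wild type, against 7.67, 9.62 and 7.08 under +FR (log2 fold change 2.42 ± 0.40, adjusted p = 9.63e-06). Without *hfr1* +FR library 2 and the other libraries that stand apart, its *hfr1* fold change was 2.23 (adjusted p = 2.67e-06). In *uvr8* it had 5.73, 8.12 and 14.0 CPM under +FR+UVB, against 19.5, 12.3 and 14.2 under +FR (log2 fold change -0.72 ± 0.39, adjusted p = 0.390). *KIN2* had 323, 344 and 342 CPM under +FR+UVB in wild type, against 198, 226 and 241 under +FR, without overlap and without passing (log2 fold change 0.60 ± 0.28, adjusted p = 0.0691). *COR47*, with -0.09 ± 0.22 in *hfr1* and 0.32 ± 0.22 in wild type, had overlapping libraries in both.

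*KIN1* and *KIN2* share 95.0% of their coding bases, so reads could in principle be exchanged between them. Of the 730 windows of 100 bases in the annotated exons of *KIN1*, 0 occurred identically in *KIN2* and 18 occurred there with at most 2 differences. For *DREB1A* and *DREB1C* 15 windows did so, and no window was identical between any pair of members. The length annotated as *DREB1A* overlaps a non-coding gene on the other strand, and that of *COR15B* a protein-coding one. The library kit keeps strand, and the strand setting of the counting is not given in the sources used here.

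When far-red was added on top of UV-B, a comparison that shares its +FR+UVB libraries with the one before, members passed in *uvr8* and not in the other genotypes. There 9 members rose, all but *COR47*, where 1.1% of all genes did. In *hfr1* and wild type 0 members passed with edgeR or DESeq2, where 0.87% of all genes rose in *hfr1* and 0.401% in wild type, and 2 members in *hfr1* and 4 in wild type had an unadjusted p under 0.05. The members' median log2 fold change was 2.63 in *uvr8*, 0.471 in *hfr1* and 0.671 in wild type. Whether this effect differed between genotypes was not tested. *COR15A* had 20.1, 36.1 and 134 CPM under +FR+UVB in *uvr8*, against 1.05, 2.33 and 0.415 under +UVB (log2 fold change 5.62 ± 0.96, adjusted p = 0.000303), with every +FR+UVB library above every +UVB library. *RD29A* rose by 3.51 ± 0.47 on the log2 scale in *uvr8*, against 0.68 ± 0.43 in wild type, where it did not pass (adjusted p = 0.438). The remaining log2 fold changes that passed in *uvr8* ran between 1.76 for *ERD10* and 3.75 for *COR15B*, and *COR47* stayed just under 2-fold at 0.98 ± 0.22. In wild type *COR15B* had 29.0, 49.8 and 29.9 CPM under +FR+UVB, against 18.6, 12.1 and 8.78 under +UVB (log2 fold change 1.46 ± 0.49, adjusted p = 0.0976). Those libraries did not overlap. *DREB1B* was at 0 counts in all wild-type +FR+UVB libraries and at 2, 0 and 1 under +UVB, so no fold is given. Without the 3 libraries that stand apart, *COR15A* had 4.43 and *RD29A* 2.70 in *uvr8*, and both passed. *DREB1B* then no longer passed (1.60, adjusted p = 0.266), nor did it without any 1 of the *uvr8* +UVB libraries. *COR47* passed there without +FR+UVB library 1 (1.05) or +UVB library 3 (1.38).

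**Figure D2:**
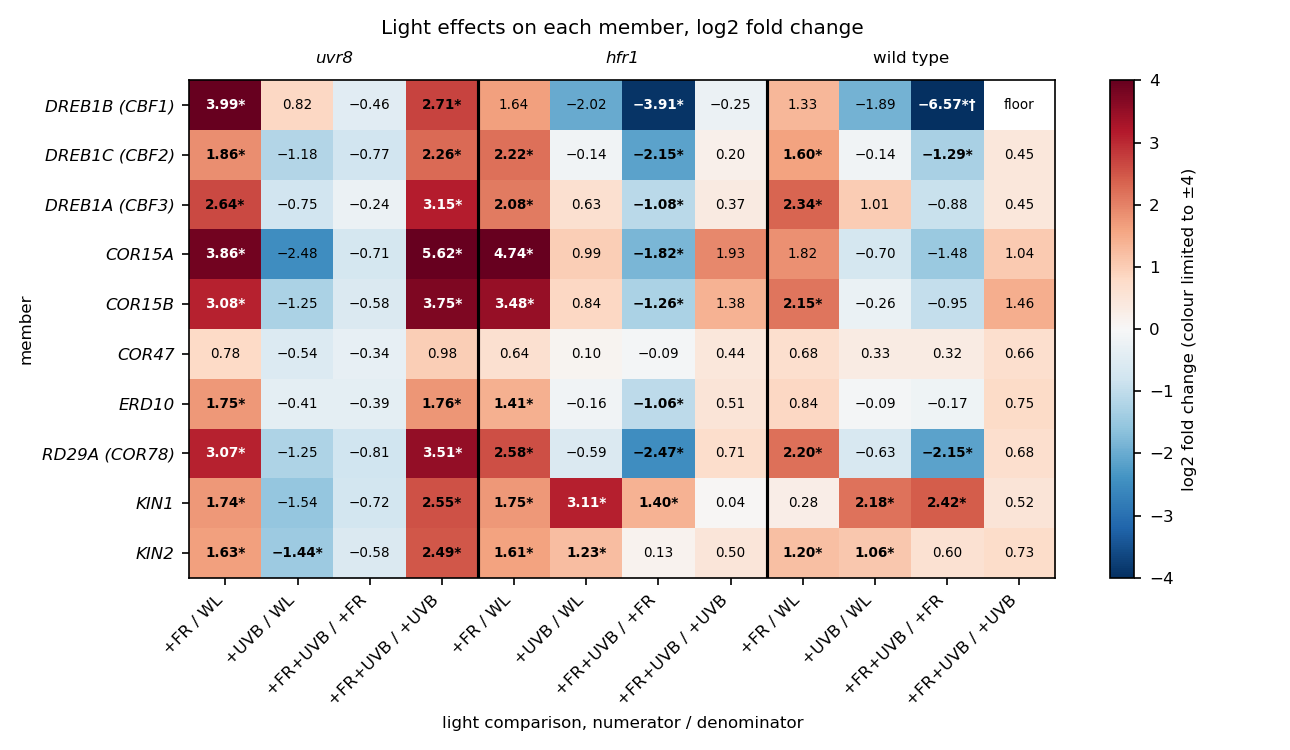
Log2 fold change of each member (rows) in each light comparison (columns, numerator over denominator) in uvr8, hfr1 and wild type. Asterisks mark a fold change over 2 with an adjusted p under 0.05, the dagger marks a fitted value for which one group had 0 counts in all 3 libraries, so its size is no estimate, and "floor" marks a comparison with both groups at or under 3 counts in every library. +FR over WL is positive throughout, and +FR+UVB over +FR is mostly negative, whereas KIN1 is at 1.40 in hfr1 (2.23 without the 3 libraries that stand apart) and 2.42 in wild type. KIN2 in hfr1 and wild type and COR47 in wild type are also positive there, without passing.

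Levels in *uvr8* and wild type were then compared in each light. Under +UVB 5 members were lower in *uvr8*, where 5.91% of all genes were. *KIN1* had 1.05, 2.33 and 1.24 CPM in *uvr8*, against 25.8, 38.4 and 26.7 in wild type (log2 fold change -4.25 ± 0.48, adjusted p = 2.95e-08), and *KIN2* had 20.4, 45.4 and 22.4 CPM, against 197, 222 and 188 (log2 fold change -2.77 ± 0.30, adjusted p = 1.46e-08). Neither gene overlapped between the genotypes. *COR15A* (-3.08 ± 0.99, adjusted p = 0.0114), *COR15B* (-1.61 ± 0.55, adjusted p = 0.0168) and *DREB1A* (-1.88 ± 0.48, adjusted p = 0.00202) were also lower in *uvr8*. *DREB1C* stayed just under 2-fold (-0.99 ± 0.37, adjusted p = 0.0267) and passed with DESeq2 (-1.01, adjusted p = 0.0427), with replicate as a block, with both other gene filters and in a fit of the compared genotypes alone. Without wild-type +UVB library 1, 3 members passed, as *COR15A* (adjusted p = 0.0771) and *COR15B* (adjusted p = 0.0908) did not. Both also failed without *uvr8* +UVB library 3, where *DREB1C* and *COR47* passed in their place. Under +FR+UVB the members split: *RD29A* was higher in *uvr8*, with 174, 296 and 746 CPM, against 93.9, 139.8 and 88.0 in wild type (log2 fold change 1.92 ± 0.44, adjusted p = 0.000641). *DREB1B* had 68 counts over the *uvr8* libraries, against 0 over the wild-type ones (adjusted p = 5.95e-05). It lay 18.6-fold above a floor of 3 counts for the wild-type group. The lower end of its ratio, for counting error only, was 14.7. Without *uvr8* library 3, which held 49 of the *DREB1B* counts, it lay 8.28-fold above that floor and the lower end was 6.10. Without the libraries that stand apart *RD29A* had 1.12 (adjusted p = 0.00211). *KIN1* (-2.22 ± 0.39, adjusted p = 3.42e-05) and *KIN2* (-1.02 ± 0.28, adjusted p = 0.00371) were lower in *uvr8*. Without *uvr8* +FR+UVB library 1, *DREB1A* (1.18) and *COR15A* (1.92) were higher as well and *KIN2* stayed under 2-fold (-0.80). Of all genes 6.4% were higher and 6.04% lower.

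Without UV-B no member passed between *uvr8* and wild type with edgeR or DESeq2. Under +FR 2 members had an unadjusted p under 0.05, *ERD10* at 0.80 ± 0.26 and *KIN1* at 0.92 ± 0.40, where 0.0717% of all genes were higher and 0.0526% lower. Under WL 0 did, where 0.0478% of all genes were higher and 0.0573% lower. Between *hfr1* and wild type 0 members passed in any light with either tool. With unadjusted p, 2 were lower under WL, *COR15A* (-2.49 ± 0.88) and *COR15B* (-1.25 ± 0.53), both of which were high in wild-type WL library 3 (without the 3 libraries that stand apart -0.28 for *COR15A* and -0.15 for *COR15B*), and 0 differed under +FR, +UVB or +FR+UVB. The share of all genes that differed between *hfr1* and wild type was 0.473% higher and 0.239% lower under +FR+UVB and between 0.0239% and 0.0478% in each direction in the other lights.

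**Figure D3:**
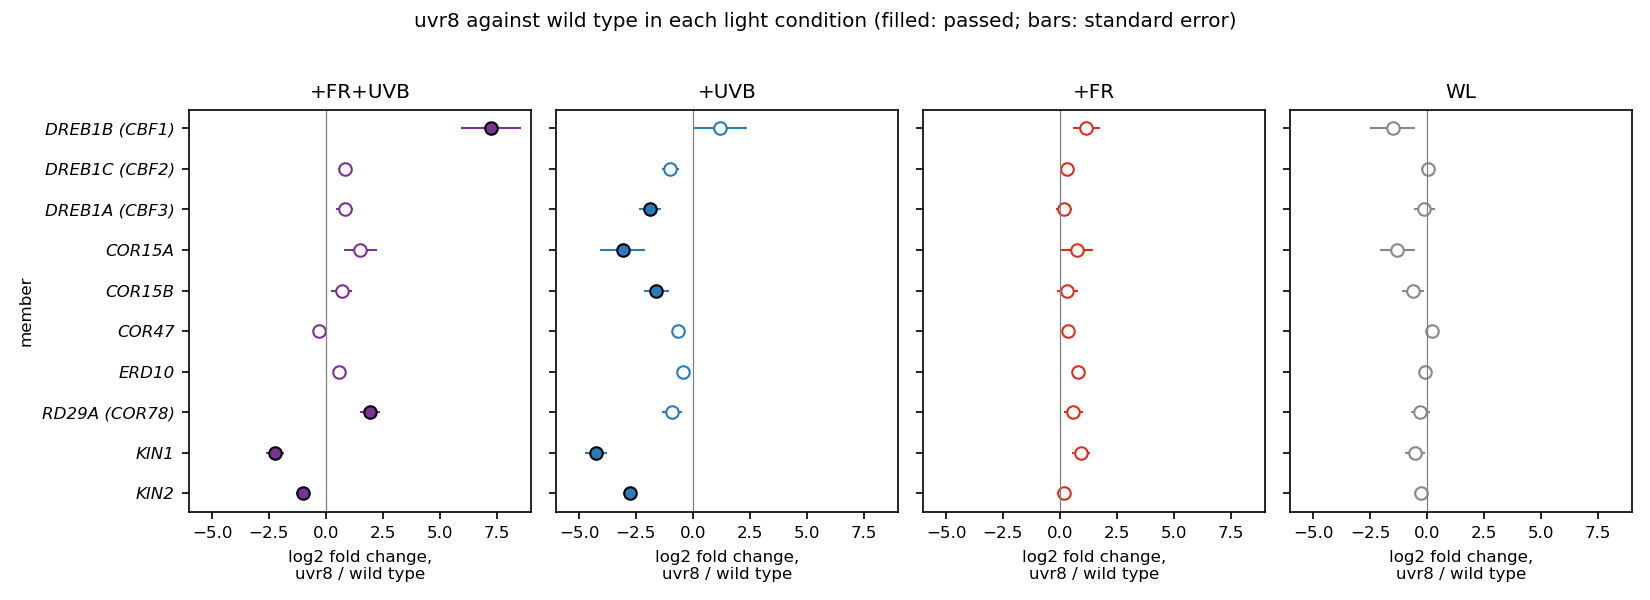
Log2 fold change of each member in uvr8 over wild type in each light condition, with standard errors as bars and filled points for members that passed. Under +UVB most points lie below 0, down to -4.25 for KIN1, under +FR+UVB KIN1 and KIN2 lie below and RD29A above 0, and under +FR and WL no point is filled. The DREB1B point under +FR+UVB is a fitted value against 0 counts in wild type, and its size is no estimate.

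Whether a light effect itself differed between *uvr8* and wild type was tested as an interaction, with an adjusted p under 0.05 as the criterion. For +UVB against WL the effect was lower in *uvr8* for *KIN1* (-3.71 ± 0.65, adjusted p = 7.71e-05), *KIN2* (-2.50 ± 0.40, adjusted p = 2.69e-05) and *COR47* (-0.87 ± 0.31, adjusted p = 0.0341), where 16.3% of all genes had a lower effect. *COR47* had 157, 193 and 348 CPM under +UVB in *uvr8*, against 340.2, 316 and 359.6 under WL, and 356, 352 and 375 under +UVB in wild type, against 274, 262 and 327 under WL, so 1 *uvr8* +UVB library reached the WL range. The call of *COR47* was lost in 8 of the 12 fits that left out 1 of these libraries, and without TMM factors (-0.64, adjusted p = 0.104). Without wild-type WL library 3, 6 members had a lower effect in *uvr8*, and without the 3 libraries that stand apart 7 did. Those gained without the 3 were *COR15A* (-3.99, adjusted p = 0.00148), *DREB1A* (-2.30, adjusted p = 0.00764), *COR15B* (-2.10, adjusted p = 0.00823) and *RD29A* (-1.33, adjusted p = 0.0134). The share of all genes was not computed for these fits. The fit without the 3 dropped wild-type WL library 3 and kept *uvr8* WL library 3. In the latter all 10 members also lay above their group's mean. The gained calls are thus no independent test of a difference. For +FR+UVB against +FR the effect was lower in *uvr8* for *KIN1* (-3.14 ± 0.56, adjusted p = 7.04e-05) and *KIN2* (-1.18 ± 0.39, adjusted p = 0.0215), against 17% of all genes, and *KIN2* no longer passed without *uvr8* +FR library 1 (adjusted p = 0.0525) or +FR+UVB library 1 (adjusted p = 0.0689), or without TMM factors (-0.91, adjusted p = 0.0644). The effect was higher in *uvr8* for *DREB1B* (adjusted p = 0.00569), against 16.4%, for which the wild-type +FR+UVB libraries held 0 counts. *RD29A* differed by 1.34 ± 0.60 without passing (adjusted p = 0.0855), and passed without *uvr8* +FR+UVB library 1 (1.70, adjusted p = 0.0261) or without TMM factors (1.63, adjusted p = 0.0352), while without the 3 libraries that stand apart it had 0.54 (adjusted p = 0.289). The effect of +FR against WL differed from wild type for 0 members in *uvr8* and 0 in *hfr1*, by edgeR and by DESeq2, although 3 members in *uvr8* and 2 in *hfr1* had an unadjusted p under 0.05, and 0% of all genes passed in either mutant. The larger number of members that passed in *uvr8* and *hfr1* under +FR is therefore not shown to be a difference between genotypes. For *hfr1*, 0 effects of UV-B on members differed from wild type by either tool, where 0.0621% of all genes had a higher and 0.00478% a lower effect under far-red, with 0 members at an unadjusted p under 0.05 for +UVB against WL and 1, *ERD10* (-0.89 ± 0.37), for +FR+UVB against +FR.

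Non-additivity asks whether the effect of UV-B under far-red differed from its effect in white light. In *hfr1*, *DREB1C* passed with a difference of -2.01 ± 0.46 (adjusted p = 0.0251), where 0.387% of all genes were lower. There 0 members passed without the 3 libraries that stand apart, where *DREB1C* had -1.71 (adjusted p = 0.0935), or without any 1 of 7 *hfr1* libraries. In wild type, where 0.903% of all genes were lower, 0 members passed with edgeR or DESeq2, and 3, *DREB1C* (-1.15 ± 0.45), *DREB1A* (-1.90 ± 0.59) and *RD29A* (-1.51 ± 0.60), had an unadjusted p under 0.05. Without those 3 libraries, *DREB1A* at -2.43 (adjusted p = 0.0204), *COR15A* at -2.99 (adjusted p = 0.0439) and *RD29A* at -2.23 (adjusted p = 0.00238) passed in wild type. *KIN1* had 0.24 ± 0.56 in wild type (adjusted p = 0.925). In *uvr8* 0 members passed with either tool, as did 0 of all genes, and 1, *KIN2* (0.86 ± 0.40), had an unadjusted p under 0.05.

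How the members varied together was described over the 12 group means of log2 CPM, which share libraries, scaling and light conditions. The Pearson r of the 45 pairs had a median of 0.832. *COR15A* and *COR15B*, a tandem pair on chromosome 2, were closest (0.992), and *DREB1C* and *RD29A*, a regulator and a target, had an r of 0.985. The 9 pairs with *KIN1* ran between -0.276 and 0.876, with a median of 0.455, and its closest partner was *KIN2*. Outside the set, the genes whose pattern was most like the mean of the 10 members were AT2G23120 (r = 0.970), *COR413-PM1* (0.964), *BGAL10* (0.958), AT1G51090 (0.955) and *AFP3* (0.953). Those most like the DREB1 genes alone were *GA20OX2* (0.962), AT3G55760 (0.962), AT5G53340 (0.960), AT1G71110 (0.960) and *CYCP1;1* (0.958).

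**Figure D4:**
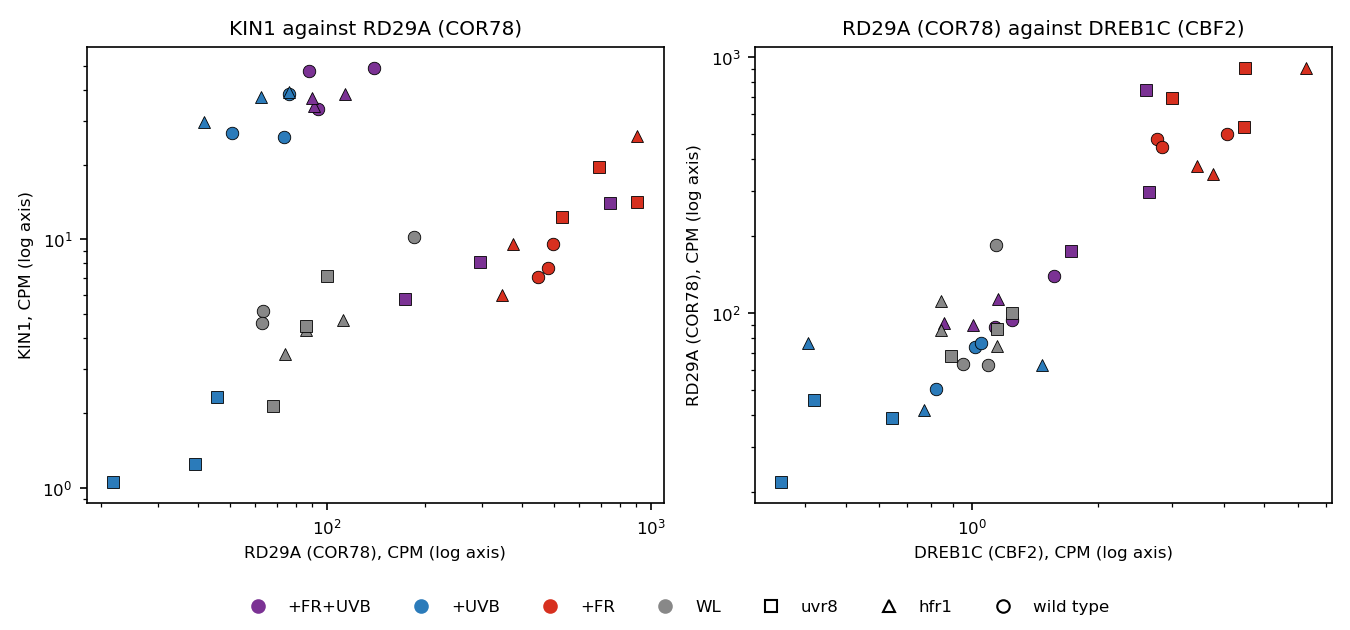
KIN1 against RD29A (left) and RD29A against DREB1C (right) in all 36 libraries, in CPM on log axes, coloured by light condition and shaped by genotype. On the left, the +UVB and +FR+UVB libraries of hfr1 and wild type form a separate cloud with KIN1 at 25.8 to 49.1 CPM and RD29A under 150 CPM, whereas on the right all libraries run along a single band.

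Other genes of the pathway were followed in lists, whose counts stand beside these shares of all genes. Under +FR against WL, 1.49% rose in *uvr8*, 1.66% in *hfr1* and 1.43% in wild type. Under +UVB against WL, 0.722% rose in *uvr8*, 7.96% in *hfr1* and 6.68% in wild type, where 6.79% fell. Under +FR+UVB against +FR, 0.239% fell and 0.616% rose in *uvr8*, 6.66% and 6.61% in *hfr1*, and 8.53% and 8.27% in wild type. Of 17 further cold-regulated genes, those that rose under +FR against WL numbered 5 in *uvr8*, 4 in *hfr1* and 3 in wild type, and 0 fell (without the 3 libraries that stand apart, 2 rose in *hfr1*). Their median log2 fold change was 0.63 in *uvr8*, 0.50 in *hfr1* and 0.42 in wild type. In wild type these included *GOLS3*, which encodes a galactinol synthase, at 2.78 ± 0.45 (adjusted p = 9.09e-05). Under +FR+UVB against +FR, 4 fell and 2 rose in *hfr1*, 3 fell and 4 rose in wild type, and 0 changed in *uvr8*. *COR413IM1*, a protein of the chloroplast inner envelope, was among those that fell in wild type (-2.93 ± 0.43, adjusted p = 1.29e-06), and *FAD8*, a plastid desaturase, among those that rose (1.80 ± 0.13, adjusted p = 1.98e-12). Of 10 first-wave cold factors, which are induced in parallel with DREB1 on chilling, 1 rose under +FR in each genotype, and under +UVB 1 rose in *uvr8* and 4 in both *hfr1* and wild type, where the zinc-finger gene *ZAT12* rose by 3.16 ± 0.44 (adjusted p = 9.63e-07). Under +UVB *ERF6* fell in wild type (-1.21 ± 0.46, adjusted p = 0.0285), where 0 fell without the 3 libraries that stand apart, and under +FR+UVB against +FR *RAV1* fell in *hfr1* (-1.19 ± 0.20, adjusted p = 1.56e-05) and wild type (-1.37 ± 0.20, adjusted p = 1.81e-06), both named after their values were seen. Under +FR+UVB against +FR in wild type, the related *ZAT6* rose by 1.90 ± 0.30 (adjusted p = 5.04e-06) and *ZAT10* by 1.62 ± 0.49 (adjusted p = 0.00614). Of 5 other DREB genes, 2 were tested. *DREB2A*, a drought and heat factor that binds the same element, rose by 3.77 ± 0.23 (adjusted p = 5.33e-14) under +FR+UVB against +FR in wild type, where *DREB1B* and *DREB1C* fell.

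Of 14 genes that act upstream of DREB1 or modulate it (*ICE1*, *CAMTA3*, *MYB15*, *PIF4* and others), 1 rose under +FR against WL in *uvr8* and 2 in both *hfr1* and wild type, where the photoreceptor gene *PHYB* rose by 1.27 ± 0.06 (adjusted p = 1.52e-14). In wild type *PIF4* fell under +UVB against WL (-1.65 ± 0.20, adjusted p = 8.94e-08), and the DELLA gene *GAI* fell under +FR+UVB against +FR (-2.29 ± 0.14, adjusted p = 3.54e-14). Of 8 clock genes, 0 rose in *uvr8* and 3 in both *hfr1* and wild type under +UVB against WL, with *PRR9* at 1.95 ± 0.19 (adjusted p = 2.41e-09), *ELF4* at 1.82 ± 0.13 (adjusted p = 1.57e-12) and *GI* at 1.31 ± 0.15 (adjusted p = 2.77e-08) in wild type. Under +FR against WL the clock genes that rose numbered 1 in *uvr8*, 1 in *hfr1* and 0 in wild type. The wild-type count rests on the 2-fold minimum, as *PRR9* (0.99 ± 0.19, adjusted p = 0.000897) and *GI* (0.98 ± 0.15, adjusted p = 2.89e-05) stayed just under it. Of the 13 ABA and drought genes, those that rose under +FR against WL numbered 6 in *uvr8*, 3 in *hfr1* and 0 in wild type, and those that fell under +FR+UVB against +FR 0 in *uvr8*, 5 in *hfr1* and 3 in wild type. When the 3 libraries that stand apart were left out, 2 rose in *hfr1* and 1 in wild type under +FR against WL, and under +FR+UVB against +FR 5 fell in *uvr8* and 3 in *hfr1*. Under +UVB in wild type *RD20* (-3.13 ± 0.85, adjusted p = 0.00295), *P5CS1* (-1.75 ± 0.34, adjusted p = 0.000110) and *RD22* (-1.32 ± 0.31, adjusted p = 0.000700) fell, but *RD20* rests on WL library 3 and had -1.03 (adjusted p = 0.163) without the libraries that stand apart, where *P5CS1* and *RD22* passed again.

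Because plates other than WL were moved, 3 touch-induced genes (*TCH2*, *TCH3*, *TCH4*) were summed. In wild type they reached 204.9 to 316.7 CPM under +FR, against 103.9 to 211.2 CPM under WL. In *hfr1* they reached 157.2 to 224.5 CPM under +FR, against 111.5 to 120.1 CPM under WL, and in *uvr8* 127.4 to 168.8 CPM, against 100.4 to 159.8 CPM. *TCH4* passed in each genotype under +FR, and in wild type it rose under +UVB by 2.16 ± 0.30 (adjusted p = 1.09e-06). *TCH2* and *TCH3* passed in no light comparison. Under +UVB in wild type *TCH2* had 0.34 ± 0.17 (adjusted p = 0.0965) and *TCH3* -0.46 ± 0.41 (adjusted p = 0.368). In *uvr8* the sum under +UVB was 205.8 to 257.7 CPM, although none of *TCH2* (adjusted p = 0.440), *TCH3* (adjusted p = 0.137) and *TCH4* (adjusted p = 0.0757) passed there against WL. The part of touch and of the ABA genes in the members' levels was not tested.

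**Figure D5:**
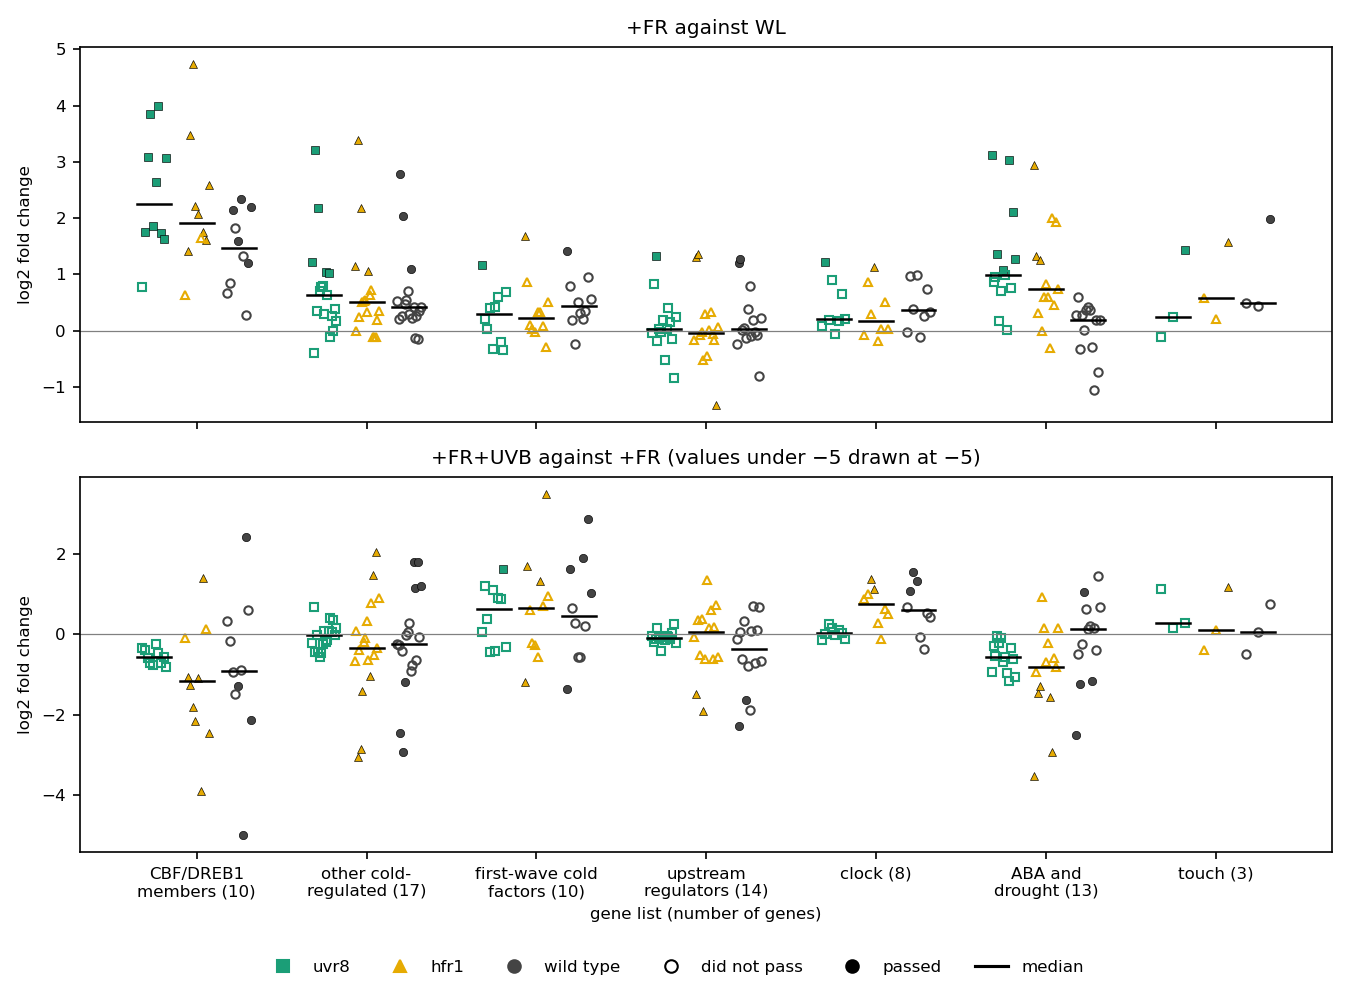
Log2 fold change of each tested gene in the members and 6 other lists, for +FR against WL (top) and +FR+UVB against +FR (bottom), in uvr8, hfr1 and wild type, with filled points for genes that passed and bars for medians. In the top panel the members' medians lie at 2.25 in uvr8, 1.92 in hfr1 and 1.46 in wild type, above those of the other lists (without the 3 libraries that stand apart, 1.51 in hfr1 and 1.63 in wild type), and values under -5 are drawn at -5 in the bottom panel.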

How the data were processed

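Per the labels and the paper's methods, the authors checked reads with FastQC 0.10.2, mapped them to TAIR10 with TopHat2 2.0.13 and counted them per gene with HTSeq 0.6.1. They deposited raw counts of 33602 genes and a normalized signal of 20926 genes, which the authors made from the counts with edgeR 3.4.2 and which equals the counts scaled to a common library size (CPM) by TMM factors within 0.0283%. Here the raw counts were fitted in R 4.3.3 with edgeR 4.0.16, keeping those 20926 genes, with TMM factors (0.860 to 1.13) and 1 coefficient per group over all 36 libraries. The factors differed by group. Under +FR+UVB they were 0.875 to 0.889 in wild type and 0.860 to 0.890 in *hfr1*, against 1.03 to 1.13 in *uvr8*. Under +FR they were 1.03 to 1.11 across the genotypes. Contrasts were tested with the quasi-likelihood F-test in its legacy form and adjusted by Benjamini-Hochberg over all genes. Light and genotype effects had to pass a fold change of 2 and an adjusted p of 0.05, and interactions the adjusted p alone. Shares of all genes are shares of genes that passed, and none is given for an unadjusted p under 0.05. Sequence and coordinates come from RefSeq's TAIR10.1, handled in Python 3.11.15, and the files themselves carry no coordinates.

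Where replicates came from is not stated, so p-values measure the spread between these samples. Same-numbered libraries deviated together (all 3 r over 0.1) in 2 of 20 pairs of groups, wild type +UVB with WL (0.204, 0.230 and 0.377) and *hfr1* with wild type under +FR, so the fit with replicate as a block is given beside the first. Alternatives were no TMM factors, edgeR's current quasi-likelihood method, 2 other gene filters, DESeq2 1.42.0, fits of the compared genotypes alone, and leaving out each library. The 3 libraries that stand apart were left out together after seeing the data. From each other list, at most 3 genes are named, those with the largest change that passed in a wild-type light effect, and from all genes the 5 most like the members. The members and the lists were chosen with earlier results of these data known. The method was tested on simulated data.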

Additional observations from a re-analysis of the deposited data

Results flagged for a closer look

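In 6 cases the effect of UV-B on a member differed between *uvr8* and wild type by a test of the difference itself (edgeR quasi-likelihood test, adjusted over all genes). By the same test of +UVB against WL, 13.5% of all genes had a higher and 16.3% a lower effect in *uvr8*. The shares were 16.4% and 17% for +FR+UVB against +FR, so such differences were common among all genes. For +UVB against WL, the log2 effect in *uvr8* minus that in wild type was -3.71 for *KIN1* (adjusted p = 7.71e-05), -2.50 for *KIN2* (adjusted p = 2.69e-05) and -0.871 for *COR47* (adjusted p = 0.0341). For *COR47* the effects in both genotypes were under 2-fold, and its call was lost in 8 of the 12 fits that left out 1 library and without TMM factors (-0.641, adjusted p = 0.104). For +FR+UVB against +FR it was -3.14 for *KIN1* (adjusted p = 7.04e-05) and -1.18 for *KIN2* (adjusted p = 0.0215), a call that was lost without TMM factors (-0.912, adjusted p = 0.0644) and without *uvr8* +FR library 1 or +FR+UVB library 1. It was 6.11 for *DREB1B* (adjusted p = 0.00569), a fitted value that has no reliable size because all 3 wild-type +FR+UVB libraries held 0 counts.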

How the results depend on the processing

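Of 64 values that passed, 64 passed with edgeR's current quasi-likelihood method, 64 with all 26408 genes of at least 1 count, 64 with the 20867 genes of edgeR's own filter, 64 with DESeq2, 61 in fits of the compared genotypes alone and 60 without TMM factors, and none of them turned sign. With replicate as a block 64 of 64 passed and 4 more did: *DREB1A* for +UVB against WL in wild type (1.06) and for that effect in *uvr8* minus wild type (-1.86), *COR47* for +FR+UVB against +UVB in *uvr8* (1.01) and *DREB1C* for *uvr8* against wild type under +UVB (-1.01). The block changed no other call. Without TMM factors, 1 member was higher in wild type under +UVB against WL, 6 were lower in wild type under +FR+UVB against +FR, where the effect was then higher in *uvr8* for 2 and lower for 1, and under +FR+UVB 5 were higher and 1 lower in *uvr8* than in wild type. With the compared genotypes alone, 0 members were lower in *uvr8* under +UVB against WL, 1 was higher in *hfr1* under +FR+UVB against +UVB and 0 passed for non-additivity in *hfr1*. DESeq2 gained 4 calls: *DREB1A* higher in wild type (1.04) and *KIN1* lower in *uvr8* (-1.55) under +UVB against WL, which made 2 members lower there, *DREB1A* for that effect in *uvr8* minus wild type (-1.80), and *DREB1C* for *uvr8* against wild type under +UVB (-1.01). Without the 3 libraries that stand apart, chosen after seeing the data, 35 of 43 values that passed did so again. Members higher in wild type under +UVB against WL then numbered 4, those lower under +FR+UVB against +FR 3 in *uvr8* and 3 in *hfr1*, those lower for non-additivity 3 in wild type and 0 in *hfr1*, and those with a lower effect of +UVB in *uvr8* than in wild type 7. *COR15A* turned to 1.52 for +UVB against WL in wild type. Leaving out 1 library at a time, 380 of 426 values that passed did so again. The counts ran from 1 to 3 higher in wild type and 0 to 2 lower in *uvr8* and 0 to 1 lower in *hfr1* for +UVB against WL, and from 0 to 1 lower in *uvr8* and 3 to 7 lower in *hfr1* for +FR+UVB against +FR. For non-additivity in *hfr1* they ran from 0 to 1. Between *uvr8* and wild type they ran from 2 to 6 for the effect of +UVB, from 1 to 2 higher and 1 to 2 lower for that of UV-B under far-red, from 3 to 6 lower under +UVB, and from 2 to 4 higher and 1 to 2 lower under +FR+UVB. The causes of these shifts were not tested, and the shares of all genes were not computed for these alternatives. Depth limits *DREB1B* above all, at 0 to 49 counts per library.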
